A study of Mus musculus with 6 samples.

Results

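The levels of 9 transcripts of microglia and complement were followed through single cells of the mouse retina, out of 20822 genes in the table. The 9 genes were chosen by name. They are C1qa, C1qb and C1qc, which encode the chains of complement C1q, the receptors Cx3cr1, Csf1r and P2ry12, the membrane protein Tmem119, and Trem2 with its signalling partner Tyrobp. All 9 were in the table. Their unique molecular identifiers (UMIs, each standing for 1 captured transcript) were summed over the cells of each annotated type in each replicate and expressed as UMIs per 1000000 UMIs of that sum (CPM). For the 9 genes, CPM were compared within a gene and not between genes.

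Microglia are the resident macrophages of the retina. C1q, built from its A, B and C chains, starts the classical complement pathway when it binds a tagged surface, and in neural tissue it labels material for removal by phagocytes. Microglia survive on signals through Csf1r, sense neuronal fractalkine through Cx3cr1 and nucleotides released by damaged cells through P2ry12, and bind lipids through Trem2, which signals through the adaptor Tyrobp.

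The study asked how loss of endothelial nitric oxide synthase (eNOS, gene Nos3) changes retinal vessels in oxygen-induced retinopathy (OIR), a model in which young mice are kept in high oxygen and then returned to room air. Retinas were taken at postnatal day 14 from eNOS+/+ mice (C57BL/6J) and from mice homozygous for a Nos3 knockout allele on a background crossed back to C57BL/6J (eNOS-/-), and both groups went through OIR. Each group had 3 replicates, each a pool of 3 to 5 retinas, and the cells were enriched for endothelial cells (ECs) with beads against CD31 before Drop-seq. No replicate was free of OIR, and the deleted part of the Nos3 allele is not given in the sources used here.

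The replicates held 415 to 3710 cells and 617246 to 3350799 UMIs. Nos3 was found in the ECs of every replicate, at 19.4, 36.6 and 23.6 CPM in those labelled eNOS+/+ and at 21.2, 16.1 and 32.8 CPM in those labelled eNOS-/-. These ranges overlapped. Since the reads come from the 3′ end and may lie outside the deleted part, Nos3 does not check the labels, and eNOS-/- below means labelled so. Of 8944 cells, 216 carried the label Immune, with a median of 518 UMIs. The eNOS+/+ replicates gave 21, 1 and 26 of them and the eNOS-/- replicates 65, 74 and 29. The 216 barcodes formed 151 families that share all but the last base, so these cells may not all be independent. Counts and intervals below take each barcode as 1 cell unless stated. In eNOS+/+ replicate 2 the single Immune cell held 349 UMIs, so its levels are left out below unless stated. Of its 8 cells in cluster 18 of the deposited clustering, the main Immune cluster, 7 carried the label of structural ECs. Those 7 cells held 76 UMIs of the 9 genes, 63 of the microglial protease Ctss, 5 of Pecam1 and 0 of Cldn5. Fewer genes were found in exactly 1 cell than in exactly 3 cells of each replicate (108 to 810 against 951 to 1212), so a gene listed at 0 in a replicate may have been found in too few cells to be listed.

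The label Immune was read against lists of markers. The pan-leukocyte gene Ptprc was at 358 ± 149 CPM and Laptm5, also broad in leukocytes, at 1689 ± 507 CPM (SD, n = 5 replicates). Of 7 genes of T and NK cells in the table, 0 had a UMI in Immune cells, and of 8 genes of B cells 4 did, with 40 UMIs, most of them Ighm. Neutrophil genes added 11 UMIs and genes of border macrophages, which line vessels and meninges, 240, of which Pf4 gave 133. Of 5 genes of monocytes, 4 had a UMI, with 496 UMIs and a summed level of 1706 to 2492 CPM in eNOS+/+ and 2592 to 5710 CPM in eNOS-/- replicates. Lyz2, which macrophages also use, gave 457 of them in 120 of 216 cells, and the monocyte receptor gene Ccr2 gave 9. Endothelial genes were also present, Pecam1 at 1201 ± 333 CPM with Cldn5 at 76.8 ± 115 CPM. All 7 endothelial genes had a UMI, with a summed level of 1371 to 1584 CPM in eNOS+/+ and 914 to 2303 CPM in eNOS-/- replicates. Their part in the results was not tested.

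The C1q chains were found in all 5 replicates with enough Immune cells. C1qa was at 1340 and 2202 CPM in the Immune cells of eNOS+/+ replicates 1 and 3 and at 2137, 2252 and 2428 CPM in the eNOS-/- replicates. C1qb was at 2802 and 3365 CPM against 3599, 3697 and 3938 CPM. C1qc was at 3655 and 2368 CPM against 1351, 2061 and 2954 CPM. For C1qb every eNOS-/- replicate lay above both eNOS+/+ replicates, while C1qa and C1qc overlapped. How often a gene of the whole table separates so in Immune cells was not counted, here or for the genes below. Such a separation is therefore a description only. A UMI of C1qb was found in 142 of 216 Immune cells (65.7%, 95% exact interval 59.0 to 72.0%), of C1qc in 117 and of C1qa in 112. Counted by barcode family, the shares were 64.2% for C1qb, 62.9% for C1qc and 56.3% for C1qa. The 3 genes lie side by side on the minus strand of chromosome 4 (GRCm38), C1qb at 136880129 to 136886187, C1qc at 136889804 to 136893065 and C1qa at 136895917 to 136898803. Their transcripts also met in the same cells: of 112 cells with C1qa, 99 had C1qb (88.4%), and of 117 cells with C1qc, 100 had C1qb (85.5%).

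**Figure D1:**
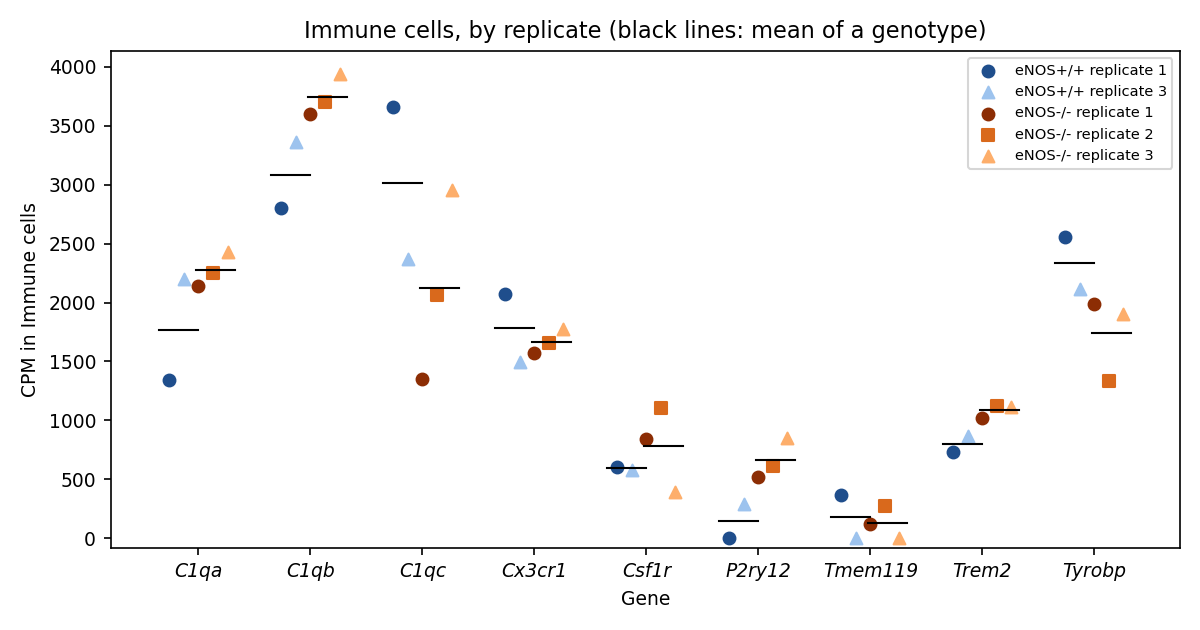
CPM of each of the 9 genes (x axis) in the summed Immune cells of a replicate (y axis, linear), 1 point per replicate, blue for eNOS+/+ and brown to orange for eNOS-/-, with a black line at the mean of each genotype. eNOS+/+ replicate 2, with 1 Immune cell, is not drawn. C1qb, P2ry12 and Trem2 have all 3 eNOS-/- points above both eNOS+/+ points, and the other genes overlap or, for Tyrobp, lie the other way. The share of all genes that separate in this way was not counted.

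Upstream sequence was available here for 5 of the 9 genes, from RefSeq on GRCm38.p6. Shown are the bases before C1qb, C1qc and Trem2, the windows that held the purine-rich hexamer GAGGAA or its complement TTCCTC, in capitals. This hexamer is a core bound by PU.1, a factor of the macrophage lineage. It was searched on both strands. C1qb is shown at chr4:136886201-136886450 and C1qc at chr4:136893066-136893164, both on the minus strand, and Trem2 at chr17:48346151-48346400 on the plus strand. The window of C1qc stops at 99 bases because the annotated gene begins there.
C1qb: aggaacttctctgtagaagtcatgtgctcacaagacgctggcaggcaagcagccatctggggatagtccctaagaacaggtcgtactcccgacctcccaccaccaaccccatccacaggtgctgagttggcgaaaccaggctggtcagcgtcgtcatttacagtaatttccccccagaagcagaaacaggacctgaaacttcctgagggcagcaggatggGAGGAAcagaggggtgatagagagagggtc
C1qc: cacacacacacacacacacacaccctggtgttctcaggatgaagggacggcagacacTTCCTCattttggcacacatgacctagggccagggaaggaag
Trem2: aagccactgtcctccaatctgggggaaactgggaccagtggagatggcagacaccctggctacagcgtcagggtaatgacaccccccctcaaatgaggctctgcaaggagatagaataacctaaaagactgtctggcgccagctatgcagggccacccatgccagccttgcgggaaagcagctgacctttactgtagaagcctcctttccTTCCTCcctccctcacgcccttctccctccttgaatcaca
Each of the 3 windows held 1 match. The window of P2ry12, which was also highest in Immune cells, held 0. That of Cx3cr1 lies inside a longer annotated gene model and was not used. Of 32851 windows of 250 bases before gene starts, 7639 held the hexamer (23.3%), so a match is common and describes the sequence only.

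Among the receptors, Cx3cr1 was the steadiest across replicates and P2ry12 the least steady. Cx3cr1, the fractalkine receptor, was at 2071 and 1495 CPM in Immune cells of eNOS+/+ replicates and at 1572, 1657 and 1772 CPM in eNOS-/- replicates. Csf1r, the receptor for Csf1 and Il34, was at 609 and 582 CPM against 841, 1105 and 394 CPM. P2ry12 was listed at 0 in eNOS+/+ replicate 1 and was at 291 CPM in replicate 3, against 524, 616 and 853 CPM in eNOS-/- replicates. The eNOS-/- values of P2ry12 lay above both eNOS+/+ values, but 87 UMIs were found in all Immune cells together. P2ry12 (chromosome 3, 59216272 to 59262871, minus strand) lies within Med12l, which runs on the opposite strand.

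The signalling pair differed in how often it was seen. Trem2 was at 731 and 872 CPM in eNOS+/+ and at 1020, 1126 and 1116 CPM in eNOS-/- Immune cells, with the eNOS-/- values all higher. Tyrobp was at 2559 and 2119 CPM in eNOS+/+ replicates. It was at 1985, 1338 and 1903 CPM in eNOS-/- replicates, all lower. Of 79 Immune cells with Trem2, 56 also had Tyrobp (70.9%), and of 124 with Tyrobp the same 56 cells made up 45.2%. Tmem119, a surface protein of microglia of unsettled function, gave 25 UMIs in 19 Immune cells. Its levels were 366 CPM and a listed 0 in eNOS+/+ replicates, and 124, 276 and a listed 0 in eNOS-/- replicates.

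Immune cells carried several of the 9 transcripts at once. At least 1 was found in 187 of 216 cells (86.6%), at least 3 in 144 (66.7%) and all 9 in 5. At an equal depth of 300 UMIs per cell, reached by all but 50 Immune cells, the share of cells with C1qb fell from 65.7 to 56.5% and that with P2ry12 from 22.7 to 12.2%. In rods, which should lack these genes, the same genes gave a UMI in 18 of 1508 cells (1.19%) at a median of 361 UMIs. In these sums fewer cells of a type and less RNA per cell cannot be told apart.

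The label joined 2 clusters of the deposited clustering that differed in these genes. Cluster 18 held 159 Immune cells with a median of 564 UMIs, and cluster 24 held 57 with a median of 490. The clusters were made from these UMIs, so their difference is a description with no test. None of the 9 genes was found in 5 cells of cluster 18 (3.14%) and in 24 cells of cluster 24 (42.1%). P2ry12 was found in 49 of 159 cells of cluster 18 (30.8%) and in 0 of 57 of cluster 24, which allows a share of cells with a UMI of up to 5.26% by a floor of 3 counts and of up to 6.27% by the 95% exact interval. At this depth it does not limit the share of cells that express the gene. C1qc was found in 67.9% against 15.8% of cells, while Tyrobp, which other myeloid cells also use, was found in 61.6% against 45.6%. Ctss and the C1q chains led cluster 18. Cluster 24 was led by Ttr and by Hmox1, the haem-degrading enzyme induced in phagocytes that take up red cells, and it held 1108 UMIs of 8 genes of the pigment epithelium (Ttr, Rgr, Rpe65 and others, chosen after their values were seen), against 10 UMIs in cluster 18. At least 2 of those genes were found in 14 cells of cluster 24, and 15 Immune cells with them were all in eNOS-/- replicates 1 and 2.

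**Figure D2:**
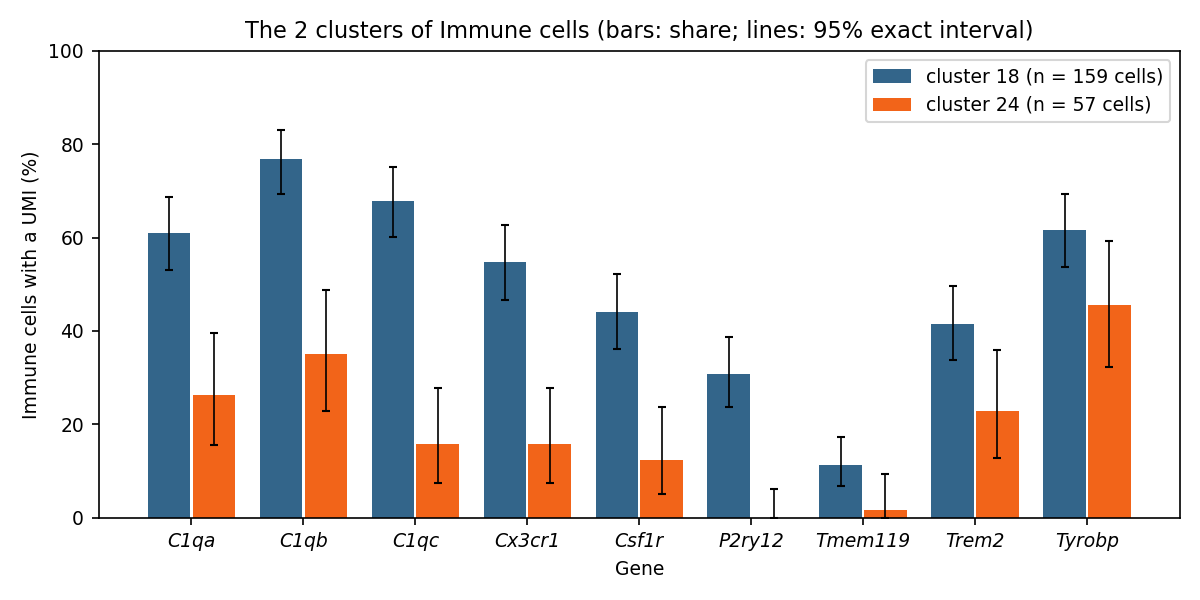
Share of Immune cells with a UMI (y axis, percent) for each of the 9 genes (x axis) in cluster 18 (blue, 159 cells) and cluster 24 (orange, 57 cells). Lines are 95% exact binomial intervals, which cover counting error only. P2ry12 falls from 30.8% to 0, and Tyrobp differs least in ratio, 61.6% against 45.6%.

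Outside the Immune label the 9 transcripts were rare, with Cx3cr1 the exception. Of the UMIs of C1qb, 6.11% came from other cells, and the shares were 6.95% for Tyrobp, 7.57% for Trem2, 7.89% for C1qa, 8.42% for P2ry12, 8.91% for C1qc and 16.4% for Csf1r. Of the 428 UMIs of Cx3cr1, 155 came from other cells (36.2%). Pooled C1qb was 935 times as high in Immune cells as in all others, and Cx3cr1 107 times. Tmem119 had 0 UMIs in other cells and was at least 464-fold higher in Immune cells, against a floor of 3 counts over the 3 replicates that list it. These ratios follow from how Immune cells were defined and carry no test.

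**Figure D3:**
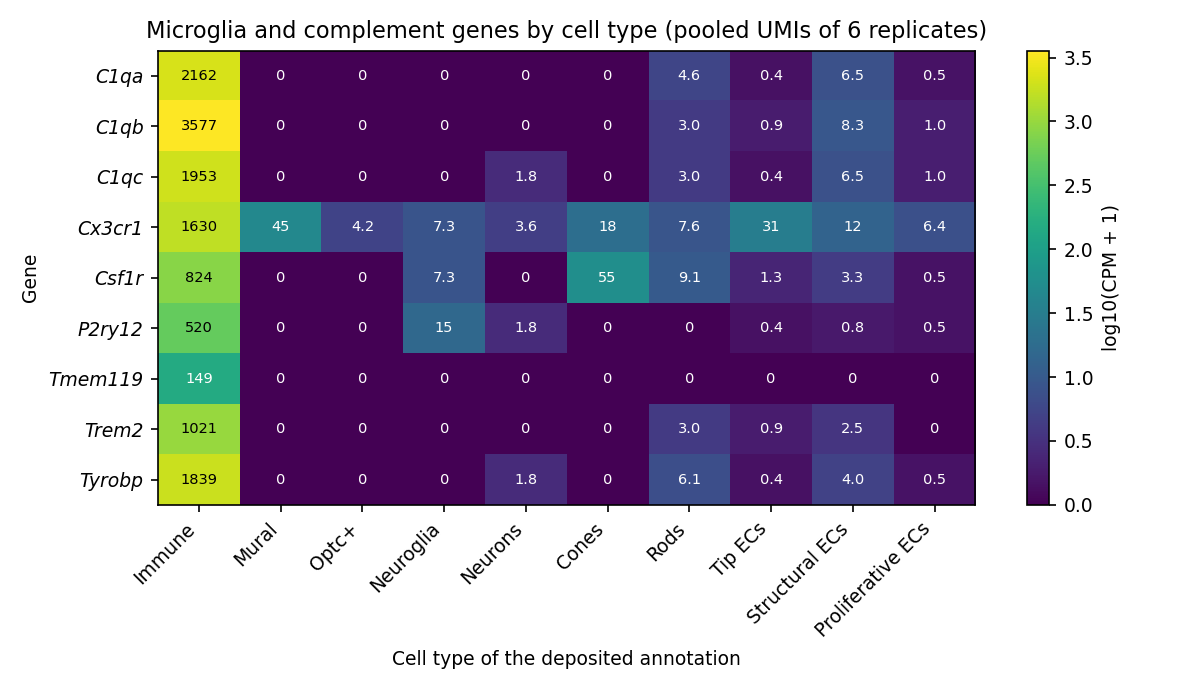
Pooled CPM (numbers in the cells, colour on a log10(CPM + 1) scale) of the 9 genes (rows) in the 10 cell types of the deposited annotation (columns), all 6 replicates summed. The Immune column stands out in each row, and Cx3cr1 is the one gene with a value above 0 in each of the 10 types.

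Most of the Cx3cr1 outside Immune cells stood alone. It was found in 73 other cells, of which 68 had no UMI of another of the 9 genes. Tip ECs, the leading cells of a sprout, gave 69 UMIs in 22 cells, structural ECs 49 in 27 cells and mural cells 14 in 4 cells. In Tip ECs Cx3cr1 made up 86.2% of the UMIs of the 9 genes, against 11.9% in Immune cells. Of the 22 Tip ECs with Cx3cr1, 14 held at least 2 UMIs of it and 1 held 12, and their barcodes formed 14 families that share all but the last base. The level in Tip ECs was 64.5, 5.34 and 44.2 CPM in eNOS+/+ and 7.98, 37.7 and 14.0 CPM in eNOS-/- replicates, so the genotypes overlapped. The annotated Cx3cr1 gene spans 168264 bases of chromosome 9 (119901616 to 120069879, minus strand) and overlaps Wdr48, Gorasp1, Ttc21a, Csrnp1, Xirp1 and others, of which Gorasp1, Csrnp1 and Xirp1 run on the same strand. Wdr48 was at 11.9 CPM in Immune cells and 21.9 CPM in Tip ECs, and Csrnp1 at 29.9 and 16.5 CPM. Whether reads of these genes were counted as Cx3cr1 was not tested, and the annotation used for counting is not given in the sources used here.

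Cells outside the Immune label with several of the 9 transcripts were few. At least 2 were found in 12 cells and at least 3 in 7, of which 4 were cells of cluster 18 in eNOS+/+ replicate 2 with the label of structural ECs. The 7 cells of cluster 18 with that label held 53 of the 56 C1q UMIs outside Immune cells of that replicate. There C1qb was at 28.5 CPM, the highest of the 6 replicates, and the lowest was 1.51 CPM.

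In the sum over all cells of a replicate, each of the 8 genes that passed the filter on low counts had a higher estimate in eNOS-/- replicates, and 0 passed the test. C1qb was at 21.7, 28.4 and 47.8 CPM in eNOS+/+ and at 97.6, 53.4 and 98.8 CPM in eNOS-/- replicates, with no overlap. Trem2 was at 7.81, 6.77 and 11.96 CPM against 27.7, 16.7 and 29.2 CPM, also with no overlap. C1qa was at 12.2, 21.7 and 33.6 CPM against 56.8, 32.8 and 61.6 CPM, and here eNOS-/- replicate 2 lay just below eNOS+/+ replicate 3. Tyrobp was listed at 0 in eNOS+/+ replicate 2, also in the 7 cells of cluster 18 that carry the label of structural ECs. Of 10702 genes tested with edgeR's quasi-likelihood test, 0 were called (0% background) at an adjusted p under 0.05, 396 had an unadjusted p under 0.05, and DESeq2 called 5, of which 0 were among the 9. The log2 fold change was 1.30 (SE 0.38) for C1qb and 1.37 (SE 0.40) for Trem2, with adjusted p of 1.00 for each in edgeR, and the unadjusted edgeR p was 0.00814 and 0.00806. The other 6 ranged from 0.46 for Cx3cr1 to 2.08 for P2ry12. Without eNOS+/+ replicate 3, P2ry12 was at 4.59 (SE 1.03) and Tyrobp at 2.01 (SE 0.92), against 2.08 and 1.21 with all replicates, and without eNOS+/+ replicate 2 Tyrobp was at 0.73 (SE 0.47). The median over the 8 genes was 1.16, against 0.00 over all genes tested. The filter can keep a gene for its counts in 1 group alone, so the count and the median over the tested genes are a description. Without eNOS+/+ replicate 2 the log2 fold changes of C1qb and Trem2 were 1.20 (SE 0.46) and 1.23 (SE 0.44).

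Read as separation of the replicates, 2 of the 7 genes with at least 100 UMIs, C1qb and Trem2, had all 3 eNOS-/- replicates above all 3 eNOS+/+ replicates, while the same held for 466 of 9760 genes with at least 100 UMIs (4.77%). P2ry12 separated too, with 0.868, 0 and 6.83 CPM against 13.8, 9.25 and 21.1 CPM, but on 95 UMIs in all. The cut at 100 UMIs is on the sum over both genotypes, so a gene can pass it through the counts of either genotype alone. The 7 genes also met in the same Immune cells and are not independent, so their count is a description with no test.

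**Figure D4:**
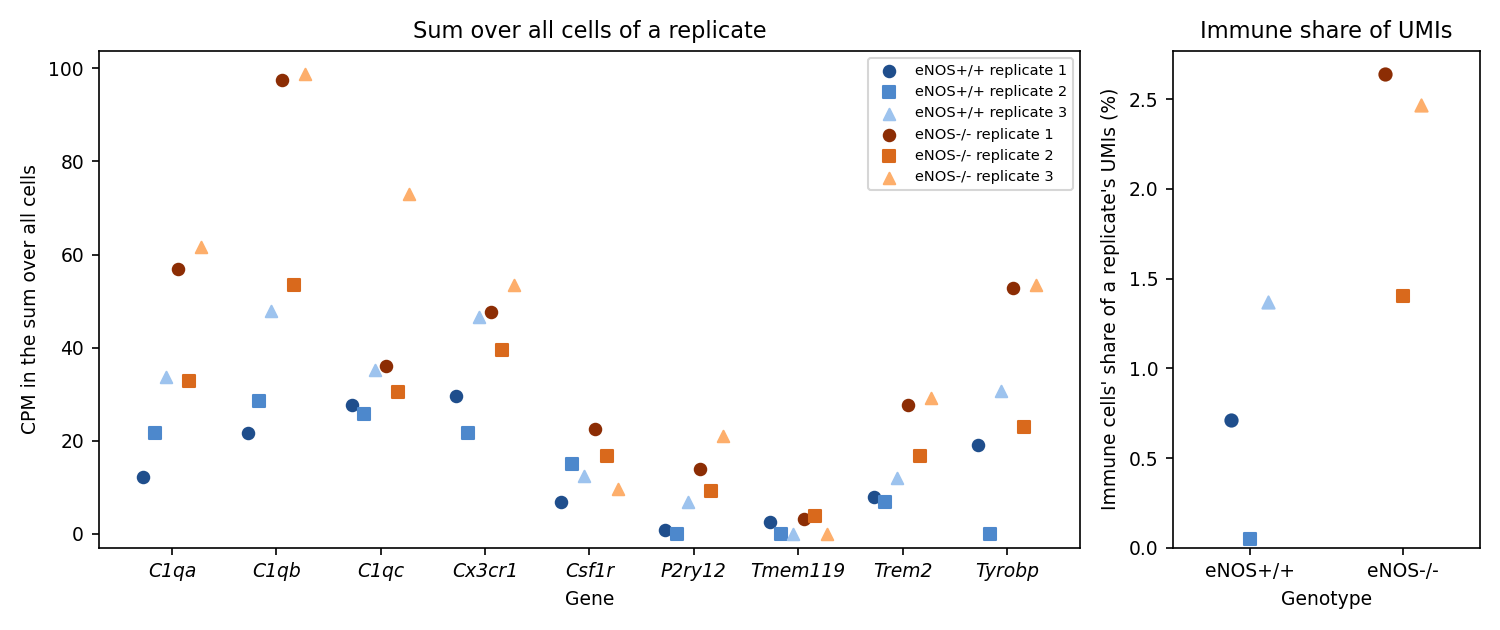
Left, CPM of the 9 genes (x axis) in the sum over all cells of a replicate (y axis, linear), 1 point per replicate. Right, the share of a replicate's UMIs that lay in Immune cells (y axis, percent) by genotype. C1qb, Trem2 and P2ry12 show no overlap between genotypes, and the Immune share of UMIs runs from 0.0473 to 1.37% in eNOS+/+ and from 1.40 to 2.64% in eNOS-/- replicates.

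Markers of some other cell types also had higher estimates in the sums over all cells of eNOS-/- replicates. All 3 tested genes of mural cells did, with a median log2 fold change of 3.08 and Rgs5 at 3.08 (SE 0.89), and their summed level was 103 to 427 CPM in eNOS+/+ and 666 to 5531 CPM in eNOS-/- replicates. All 5 tested genes of B cells did, with a median of 1.02, and their summed level was 138 to 162 CPM against 196 to 400 CPM. The summed level of neither list overlapped between genotypes, none of its genes was called by edgeR, and none of the genes in these lists was at 0 over all cells. The 5 pan-leukocyte genes had a median of 1.02 as well, and their summed level, 71.2 to 108 CPM against 117 to 199 CPM, did not overlap either. How often a sum of several genes separates so was not counted. Medians were 1.06 for 2 monocyte genes and 0.02 for 7 endothelial genes. They were -0.13 for 3 border macrophage genes, -0.32 for 4 Muller glia genes and -0.54 for 5 rod genes. The part of these cell types in the sums was not tested.

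The share of Immune cells had a higher mean in eNOS-/- replicates, and its part in the sums over all cells was not tested. It was 2.06, 0.163 and 1.86% of cells in eNOS+/+ replicates and 3.64, 1.99 and 6.99% in eNOS-/- replicates. The means were 1.36 ± 1.04% and 4.21 ± 2.55% (SD, n = 3 each), and a two-sided exact permutation test gave p = 0.2, where 3 replicates against 3 cannot go below 0.1. As a share of UMIs, Immune cells held 0.712, 0.0473 and 1.37% against 2.64, 1.40 and 2.47%, with no overlap (exact permutation p = 0.1). When cells of clusters 18 and 24 were counted whatever their label, the cell share of eNOS+/+ replicate 2 was 1.47%, the genotype means were 1.83 ± 0.346% and 4.30 ± 2.67%, and the exact permutation p was 0.2. The cells were enriched on CD31 beads, and the part of this step in these shares was not tested.

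Within Immune cells, no difference between the genotypes passed the test. Of 277 genes tested on the Immune sums of all 6 replicates, 0 were called by edgeR (0% background) and 0 by DESeq2, with 8 genes at an unadjusted p under 0.05 in edgeR. The 9 genes gave 8 that could be tested and 0 calls. P2ry12 had the largest estimate among them, a log2 fold change of 1.87 (SE 0.78, edgeR adjusted p = 0.991, unadjusted p = 0.0169). It was 1.91 (SE 0.77) without eNOS+/+ replicate 2 and 2.17 (SE 0.77) with the cells of clusters 18 and 24 whatever their label. Csf1r, Trem2, C1qa and C1qb had estimates of 0.76, 0.71, 0.69 and 0.68 and Cx3cr1 of 0.19, and C1qc and Tyrobp had estimates of -0.10 and -0.04, all with an SE of 0.60 to 0.65. The median over the 8 genes was 0.69, against 0.12 over all 277 genes, a description because the filter can keep a gene for its counts in 1 group. Without eNOS+/+ replicate 2 the median over the 8 genes was 0.51, and the estimates of C1qb and C1qa were 0.49 (SE 0.30) and 0.54 (SE 0.35). With the cells of clusters 18 and 24 whatever their label it was 0.35, against 0.01 over all genes tested, with Csf1r at 0.21 (SE 0.54) and C1qa at 0.42 (SE 0.35).

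In cells of all types but Immune, only Cx3cr1 passed the filter. It was at 14.9, 20.3 and 26.6 CPM in eNOS+/+ and at 6.36, 16.3 and 9.97 CPM in eNOS-/- replicates, and the replicates overlapped. Its log2 fold change was -0.92 (SE 0.44, edgeR adjusted p = 1.00), opposite in sign to its estimate over all cells. Of its 155 UMIs outside the Immune label, 9 lay in cells of clusters 18 and 24. With the cells of those clusters also left out, the log2 fold change was -0.65 (SE 0.52). Of 10640 genes, edgeR called 0 (0% background), 383 had an unadjusted p under 0.05, and DESeq2 called 6, of which Cx3cr1 was not one. The difference between the estimates outside the Immune label and over all cells was not tested.

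The chains of C1q were also compared with each other, as shares of the C1q UMIs of a replicate, a comparison chosen after the values were seen. Over all cells C1qb made up 35.2, 37.5 and 41.0% in eNOS+/+ and 51.2, 45.8 and 42.4% in eNOS-/- replicates. Each eNOS-/- value was higher. In Immune cells alone C1qb made up 35.9 and 42.4% in eNOS+/+ replicates 1 and 3. It made up 50.8, 46.2 and 42.3% in Immune cells of eNOS-/- replicates, so the genotypes overlapped there. The 95% exact intervals of the highest eNOS+/+ value (34.2 to 48.0%) and the lowest eNOS-/- value (34.2 to 50.9%) overlapped. C1qc made up 45.1, 33.9 and 30.2% against 18.9, 26.1 and 31.2%, and C1qa 19.7, 28.6 and 28.8% against 29.8, 28.1 and 26.4%. Exact permutation tests over the replicates gave p = 0.1 for C1qb, 0.2 for C1qc and 0.7 for C1qa, and 0.3, 0.3 and 0.7 after adjustment over the 3 chains.

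**Figure D5:**
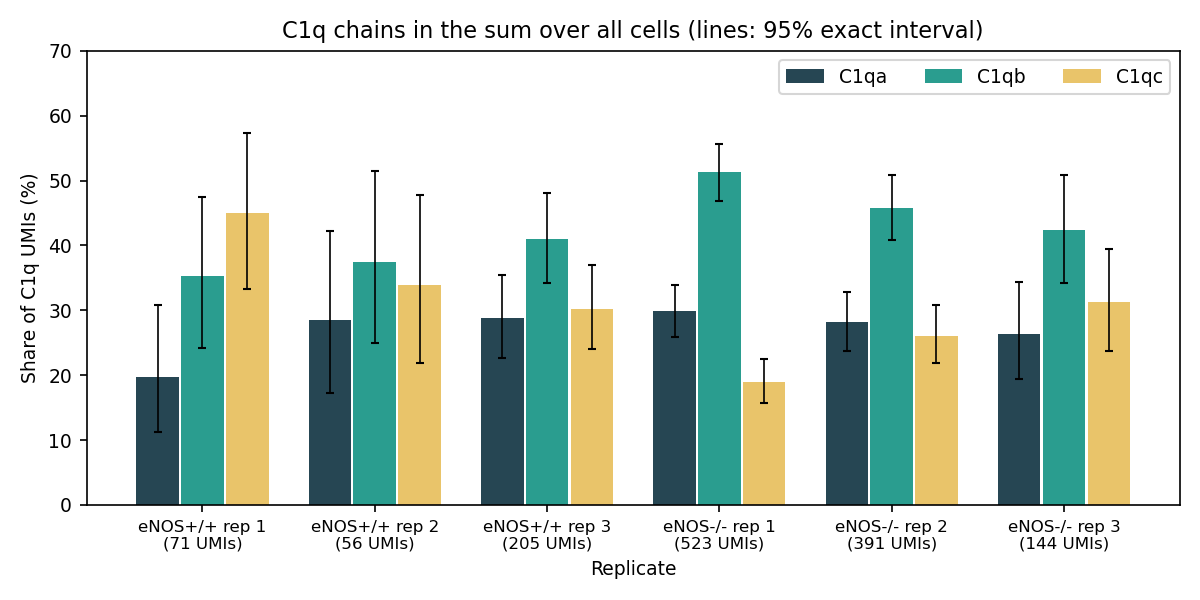
Share of each C1q chain among the C1q UMIs of a replicate (y axis, percent) in the sum over all cells, by replicate (x axis, with the number of C1q UMIs, 56 to 523). Lines are 95% exact binomial intervals for counting error only. C1qb ranges from 35.2 to 41.0% in eNOS+/+ and from 42.4 to 51.2% in eNOS-/- replicates. In Immune cells alone, not drawn here, the genotypes overlapped.

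Other genes of the same pathways were read from lists of names. Of 17 other complement genes in the table, 13 had a UMI in Immune cells and 333 UMIs in all. In Immune cells the chaperone Clu was at 315 ± 534 CPM, Itgam, a chain of complement receptor 3, at 301 ± 242 CPM, and the C3a receptor gene C3ar1 at 293 ± 235 CPM (SD, n = 5 replicates). All 83 Clu UMIs lay in cluster 24, and Clu was highest in neuroglia. No other complement gene passed the filter in Immune sums. In sums over all cells 5 did, of which 3 had higher and 2 lower estimates in eNOS-/- replicates and 0 passed the test. Of the ligands, Csf1 gave 9 UMIs in Immune cells and 525 in others and was highest in structural ECs, as was Cx3cl1, with 0 and 267 UMIs. Il34 gave 0 and 39 and was highest in mural cells.

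Among 16 other microglia genes, all had a UMI in Immune cells. The protease inhibitor Cst3 was at 10764 ± 3876 CPM, Ctss at 6927 ± 1240 CPM and the matrix gene Sparc at 3463 ± 659 CPM. Sparc was higher in Tip ECs than in Immune cells. In Immune sums 7 of the 16 could be tested, 6 with higher and 1 with a lower estimate in eNOS-/- replicates, and 0 passed the test. Of 15 genes of Trem2 and Tyrobp signalling and of phagocytes in the table, all had a UMI in Immune cells, among them the lipid carrier Apoe at 20342 ± 2534 CPM, the lysosomal proteases Ctsd at 5711 ± 2176 and Ctsb at 5322 ± 1723 CPM, and Fcer1g, an adaptor of Fc receptors, at 1194 ± 443 CPM. In Immune sums 7 of these could be tested, all 7 with higher estimates in eNOS-/- replicates and 0 past the test. The medians of the log2 fold changes of the 2 lists were 0.87 and 0.49, against the 0.12 of all 277 genes. These fits included the single Immune cell of eNOS+/+ replicate 2. The filter can keep a gene for its counts in 1 group alone, so these counts and medians are a description.

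The pattern of the 9 genes over the 50 sums of a type and replicate with at least 10 cells was shared by other myeloid transcripts. Among 9741 genes with at least 100 UMIs, Pearson's r with the mean log2(CPM + 10) of the 9 genes was highest for Fcgr3, an Fc receptor (0.992), Mpeg1, a pore-forming protein of macrophages (0.989), and Fcrls (0.988). Cd53, Fcer1g, Lyz2, Ctss and Cd68 followed at 0.981 to 0.976. Of the 9 genes, Trem2 followed the mean of the other 8 most closely (0.991), and Cx3cr1 (0.868), P2ry12 (0.811) and Tmem119 (0.727) least. These coefficients come from sums that share libraries, and 5 of the 50 are Immune sums, so they mainly record the gap between Immune and other cells.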

How the data were processed

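Drop-seq libraries came from 6 replicates, 3 for each genotype. Per the paper's methods, kb-python was run on GRCm38, and cells with few genes or many mitochondrial UMIs were discarded. The authors integrated the replicates, clustered the cells, named the types and removed contaminant clusters. The submitters' processing notes name bcl2fastq and Seurat 3. The authors deposited raw UMI counts of 20822 genes in 8944 cells, with no normalization, and a cell table that gives replicate, cell type and cluster. The way doublets were treated is not given in the sources used here, and no doublet caller was run.

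UMIs were summed per replicate and type, with 349 to 72529 UMIs in an Immune sum. edgeR 4.0.16 (R 4.3.3) tested these counts between genotypes with filterByExpr, TMM factors and its quasi-likelihood test, with p adjusted after Benjamini-Hochberg, and DESeq2 1.42.0 was the alternative tool. The SE of a log2 fold change came from its F statistic. Shares of cells went into exact permutation tests, two-sided (scipy 1.17.1). Intervals are 95% Clopper-Pearson and, like a floor of 3 counts, cover counting error only. Shares at a fixed depth are expected values after drawing each cell down to 300 or 500 UMIs. Levels by type used sums of at least 10 cells. Scripts ran in Python 3.11.15 with numpy 2.4.6, pandas 2.3.3 and matplotlib 3.10.9.

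The 9 genes and the lists were chosen with earlier results of these data known. Also named were, in each list, up to 4 genes with the highest mean CPM in Immune cells (a rule for naming, not a comparison between genes), the 8 genes most like the 9 across sums, and genes called in Immune sums. Of the genes this rule names, 2 are not reported here. Cell type lists covered border macrophages, monocytes, B cells, T and NK cells, neutrophils, ECs, mural cells, rods, Muller glia and leukocytes. Positions come from GENCODE on GRCm38. The test was checked on simulated counts with a log2 change of 2. In Immune sums of 277 genes it recovered 29 of 69 changed genes with 0 false calls, and in sums over all cells of 10702 genes 171 of 200 with 4. The chi-square per gene between replicates of a genotype was 3.81 to 12.5, above the 1 that sampling alone gives, and these replicates shared 0 barcodes. Each replicate is a pool of retinas from several eyes, so p-values measure the spread between pools.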

Additional observations from a re-analysis of the deposited data

Results flagged for a closer look

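Among 19 groups of values looked at, 6 held a replicate far from the others. Chance would flag about 1 in 20 groups of normally spread values, a rate that need not hold for low counts. The flags are also not independent, since 4 of them fall on eNOS+/+ replicate 2. Tmem119 outside the Immune label, 0 in every replicate, could not be flagged. In Immune cells, C1qa was at 1340 CPM in eNOS+/+ replicate 1, from 11 UMIs, and between 2137 and 2428 CPM in the other 4 replicates with at least 10 Immune cells. Outside the Immune label, eNOS+/+ replicate 2 stood above the other 5 replicates for 4 genes, with C1qa at 21.7 CPM, C1qb at 28.5 CPM, C1qc at 25.8 CPM and Csf1r at 14.9 CPM. Of the UMIs of these genes there, most lay in the 7 cells of cluster 18 that carry the label of structural ECs, 53 of 56 for the C1q chains. P2ry12 outside the Immune label was at 2.89 CPM in eNOS+/+ replicate 3, from 5 UMIs.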

How the results depend on the processing

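Numbers of called genes are low and moved with the settings. None of the 9 genes was called in Immune sums or outside Immune cells under any alternative run. Over all cells C1qb alone of the 9 was called, without the filter on low counts (log2 fold change 1.30, edgeR adjusted p 0.00467). That run called 130 of 20645 genes tested. The log2 fold change of C1qb was 1.30 with the filter too, and its unadjusted edgeR p was 1.5e-05 without the filter and 0.00814 with it. Immune sums gave 0 calls, 1 without mitochondrial genes, and 0 to 5 with 1 replicate left out. Sums over all cells gave 0, 5 with DESeq2, 130 without the filter and 0 to 1 with 1 replicate left out. Cells of all types but Immune gave 0, 6, 118 and 0 to 1. Each estimate of the 8 tested genes over all cells stayed positive under all alternatives run. In Immune cells C1qc turned to 0.48 without the filter, 0.19 with the replicate number as a block and 0.28 for cells with at least 500 UMIs, and its estimates with 1 replicate left out ranged from -0.29 to 0.52. Tyrobp turned to 0.57, to 0.29 with the block, to 0.0059 without cells with lymphocyte or neutrophil genes, and to 0.28 and 0.42 with the cells of clusters 18 and 24, or of 18 alone, whatever their label (added after seeing the data), with -0.21 to 0.38 when 1 replicate was left out. The difference in the share of C1qa among C1q UMIs ranged from -0.559 to 3.97 percentage points when 1 replicate was left out. The cause was not tested.

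The summed level of the 9 genes in Immune cells was 14013 ± 880 CPM (SD, n = 5) and 12698 CPM for cells with at least 500 UMIs. The difference in Immune share kept its direction in every alternative run, from 1.45 to 3.95 percentage points with 1 replicate left out, and was 2.54 with 1 cell per barcode family. The replicate numbers do not pair the samples: deviations of same-numbered replicates over all cells correlated at 0.18, -0.39 and 0.18. As a block they gave 0 calls in each of the 3 sums, as without it. With 3 replicates a side the exact test cannot pass 0.05, and Immune depth limits Tmem119, with 25 UMIs, most.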
